A study of Mus musculus with 6 samples.

Results

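Genes of hepatoblasts and of the plasma proteins that the liver secretes were examined in whole fetal livers of 6 mouse embryos. The list named 55 genes, and every probe set that the platform annotation gives to a single one of those symbols was taken. This found 64 probe sets for 52 genes, out of 10833 probe sets with 1 symbol for 8251 genes. Apoc3, Fetub and Serpina1a had no such probe set. The livers came from untreated embryos at embryonic day 12.5, from matings of 129sv mice heterozygous for Rb, the retinoblastoma gene. In one group all 3 embryos were Rb null, and in the other all 3 were wild type. The labels state neither the Rb allele nor the litter or sex of an embryo, and every cell of the dissected liver, blood cells included, was in the extract.

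Hepatoblasts are the progenitors of hepatocytes and bile duct cells, and in the embryo they already make albumin, alpha-fetoprotein, apolipoproteins and clotting factors. Their gene programme is driven by a network of transcription factors, among them HNF4A, the FOXA proteins and the C/EBP proteins. In the fetal liver they also form the stroma in which red cells mature, so their transcripts are measured against a large amount of erythroid RNA. The comparison of Rb null with wild type livers asks how these genes stand in the absence of Rb.

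Values are MAS5 signals on a linear scale, and their 2% trimmed mean, computed here, was about 500.2 on every array. Fold changes are differences of log2(signal + 50.02), Rb null minus wild type, given ± SE, and understate the change of dim genes. Signals given with ± are the mean and SD of the 3 embryos of a genotype. A gene stands for its brightest probe set, was tested where the mean signal exceeded 150.1, and is said to have risen or fallen only at a limma adjusted p below 0.05 over all 6793 tested probe sets. Signals of different probe sets are not compared with each other. The 2 tested Rb1 probe sets bore out the labels as far as they can: they read 127 to 142 and 73.4 to 105 in Rb null livers, against 706 to 791 and 385 to 433 in wild type livers. No source used here places the probes against the part of Rb1 that was deleted.

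Of the 43 liver genes that passed the signal filter, 13 rose in Rb null livers, 3 fell and 27 did not pass the test. That is 30.2% higher and 6.98% lower, beside 13.1% higher and 9.50% lower among all 5273 genes tested. The rises were those of the transcription factor genes Hnf4a, Foxa3 and Cebpb, of the clotting genes F2, F5, F10, Fgg and Serpinc1, of Serpinf1, Itih3, Vtn and Ambp among other plasma proteins, and of Apoc1. The falls were those of Alb, Apoa1 and Otc, and that of Alb turned to a positive estimate under 2 of 3 rescalings. Of the 13 rises 8 held under every processing alternative that tested them, and no fall did. The calls on F10, Fgg, Itih3, Vtn and Ambp were each lost in at least 1 alternative. Changes were small: the median size of the 16 changes was 0.38 on the log2 scale, and the largest was the rise of F5 at 0.58 ± 0.07. In a whole liver, fewer cells of a type and less RNA per cell cannot be told apart. Scaling the arrays to equal medians moved the median of all genes from 0.02 to -0.11. The count of liver genes then became 8 of 43 higher and 10 lower, beside 6.88% higher and 20.8% lower among all genes. The upward share of the liver gene calls went from 81.2% to 44.4%. The list's median was 0.12 as deposited and -0.011 after that scaling. Its distance above the median of all genes was 0.099 as deposited and 0.095 with equal medians. That scaling multiplies each array by a constant and shifts most genes alike, so it could hardly change this distance. The distance was 0.047 with a stricter filter, 0.053 with no filter, 0.15 after quantile normalization and 0.16 after cyclic loess.

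**Figure D1:**
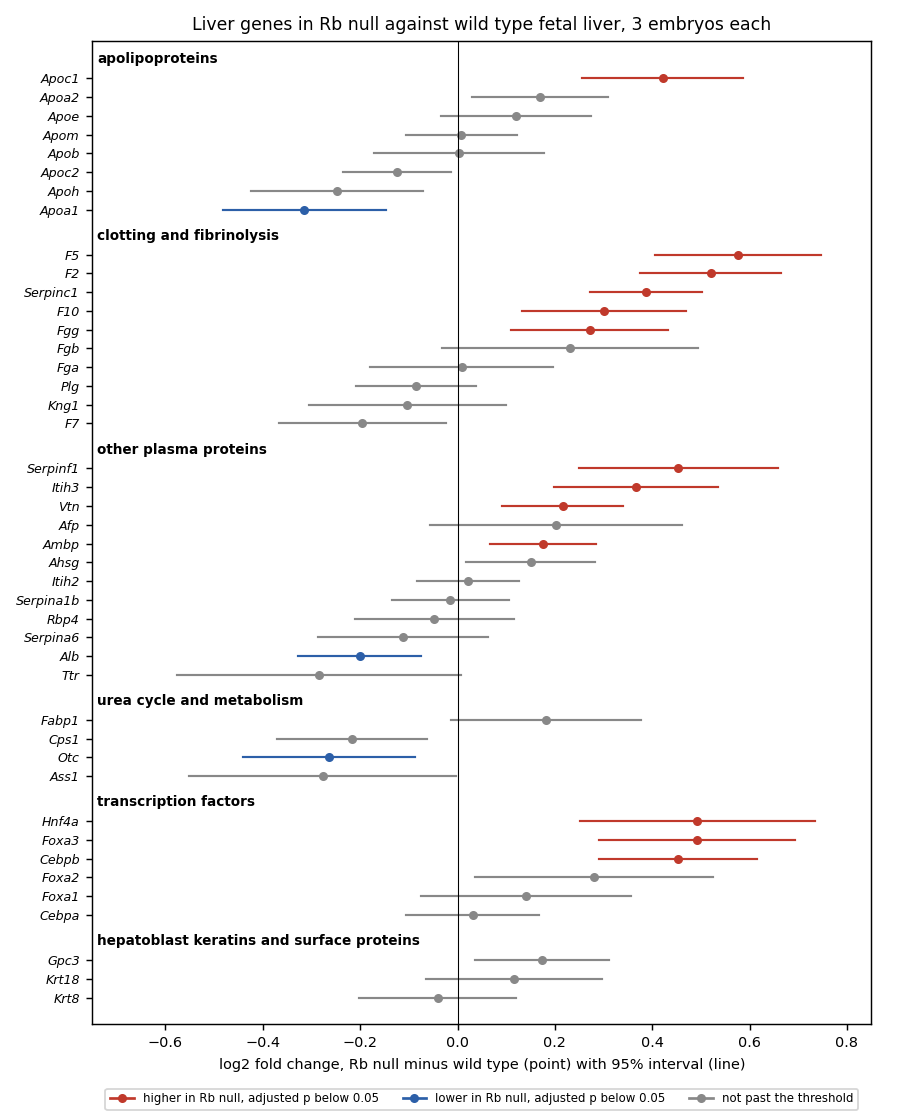
Log2 fold change of the 43 tested liver genes, Rb null minus wild type (horizontal axis), by role; points are estimates, lines are 95% intervals, red marks genes that rose and blue genes that fell. The rises reach 0.58 for F5, 3 of 6 transcription factor genes and 5 of 10 clotting genes are red, and Apoa1, Alb and Otc lie to the left.

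Signals of the genotypes did not overlap, 3 embryos against 3, for 24 of the 43 genes, 18 upward and 6 downward, or 41.9% and 14.0%. Over all tested genes the same held for 23.5% upward and 17.6% downward, 41.2% in all. Relative to the wild type mean, the median over the 43 genes was 0.07, 0.13 and 0.07 in Rb null embryos 1 to 3 and between -0.01 and 0.01 in the wild type embryos. For the 6 transcription factors it was 0.28, 0.43 and 0.37, for the 10 clotting genes 0.21, 0.31 and 0.20, and for the 4 metabolic genes -0.12, -0.22 and -0.23, beside 0.05, -0.08 and 0.03 in wild type embryos 1 to 3. For the 8 apolipoproteins the Rb null values were -0.0095, -0.0073 and 0.03, and for the 3 keratin and surface genes they were 0.017, 0.11 and 0.18.

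**Figure D2:**
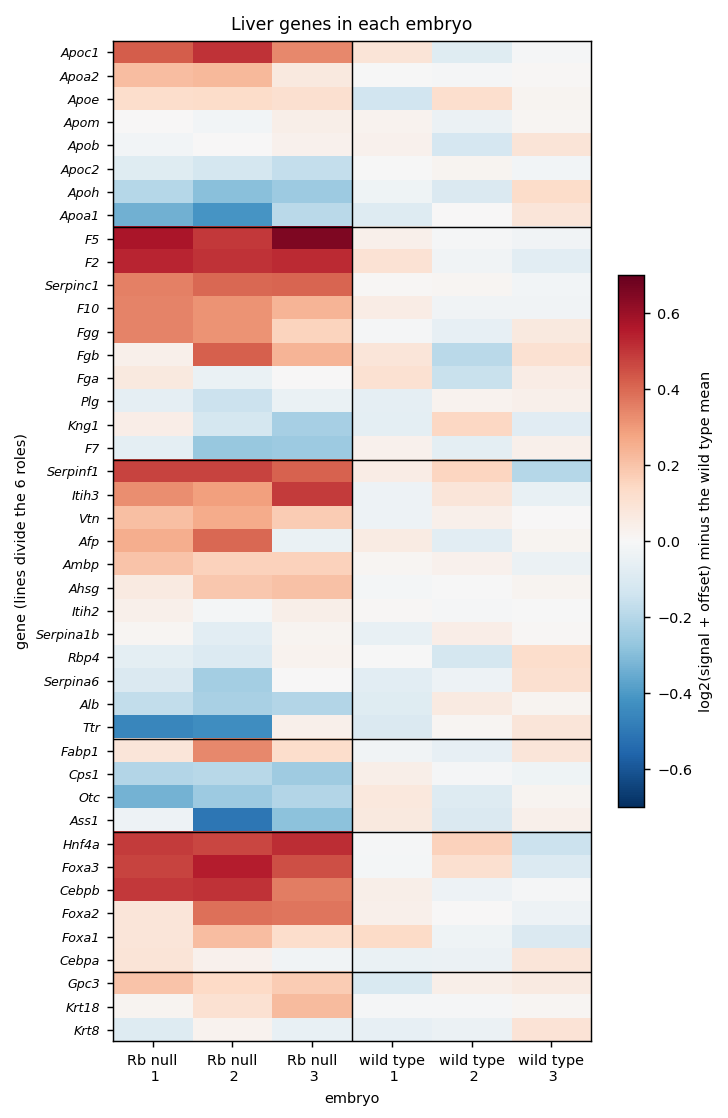
Each tested liver gene (rows, by role from apolipoproteins at the top to keratins and surface proteins at the bottom) in each embryo (columns), as log2(signal + 50.02) minus the wild type mean; red is higher and blue is lower. The rows of F5, F2, Serpinc1, Hnf4a, Foxa3 and Cebpb are red in all 3 Rb null embryos, while Ttr and Ass1 differ among Rb null embryos.

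Promoters of 8 genes are shown so that the groups can be set side by side. They are the clotting genes with the largest rises, Foxa3, all 3 genes that fell, and Afp, the neighbour of Alb. Hnf4a, Cebpb and the other genes that rose are not printed. Sequences are the 250 bases before the RefSeq start of each gene (GRCm38.p6), written 5′ to 3′ on the strand of the gene. Capitals mark matches, on either strand, to GTTAAT (HNF1 half-site), CAAAGTCCA (HNF4), TGTTTAC (FOXA), TTGCNNAA (C/EBP) and TATAAA, the letters bound by the TATA-binding protein, which do not overlap each other in these sequences.
F2 (chr2:91636458-91636707, minus strand): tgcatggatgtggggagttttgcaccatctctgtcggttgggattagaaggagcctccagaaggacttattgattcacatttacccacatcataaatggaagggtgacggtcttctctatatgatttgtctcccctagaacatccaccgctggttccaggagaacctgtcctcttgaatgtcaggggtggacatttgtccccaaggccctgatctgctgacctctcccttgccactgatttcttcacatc
F5 (chr1:164151585-164151834, plus strand): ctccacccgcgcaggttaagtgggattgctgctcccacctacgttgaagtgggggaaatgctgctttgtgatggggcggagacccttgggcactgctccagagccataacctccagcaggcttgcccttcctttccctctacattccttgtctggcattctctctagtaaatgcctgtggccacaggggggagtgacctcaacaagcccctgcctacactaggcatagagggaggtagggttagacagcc
Serpinc1 (chr1:160978333-160978582, plus strand): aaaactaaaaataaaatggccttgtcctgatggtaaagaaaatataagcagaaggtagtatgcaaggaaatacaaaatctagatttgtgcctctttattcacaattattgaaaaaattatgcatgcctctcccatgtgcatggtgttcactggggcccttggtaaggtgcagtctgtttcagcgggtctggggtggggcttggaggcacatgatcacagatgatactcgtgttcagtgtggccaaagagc
Foxa3 (chr7:19023540-19023789, minus strand): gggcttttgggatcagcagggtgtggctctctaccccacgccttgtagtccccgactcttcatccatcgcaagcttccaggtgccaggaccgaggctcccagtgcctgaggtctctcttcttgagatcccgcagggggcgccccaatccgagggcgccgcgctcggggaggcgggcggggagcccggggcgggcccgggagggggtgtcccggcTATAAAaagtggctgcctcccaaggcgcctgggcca
Alb (chr5:90460620-90460869, plus strand): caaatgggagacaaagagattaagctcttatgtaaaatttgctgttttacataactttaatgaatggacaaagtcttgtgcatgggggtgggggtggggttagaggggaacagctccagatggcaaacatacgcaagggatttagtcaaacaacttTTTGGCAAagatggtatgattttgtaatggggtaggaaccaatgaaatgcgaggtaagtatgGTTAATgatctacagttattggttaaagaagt
Afp (chr5:90490464-90490713, plus strand): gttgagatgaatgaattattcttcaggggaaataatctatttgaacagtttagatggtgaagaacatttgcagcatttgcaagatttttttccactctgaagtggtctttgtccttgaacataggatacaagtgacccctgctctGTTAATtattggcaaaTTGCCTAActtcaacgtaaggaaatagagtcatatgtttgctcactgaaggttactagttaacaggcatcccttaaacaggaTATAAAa
Apoa1 (chr9:46228380-46228629, plus strand): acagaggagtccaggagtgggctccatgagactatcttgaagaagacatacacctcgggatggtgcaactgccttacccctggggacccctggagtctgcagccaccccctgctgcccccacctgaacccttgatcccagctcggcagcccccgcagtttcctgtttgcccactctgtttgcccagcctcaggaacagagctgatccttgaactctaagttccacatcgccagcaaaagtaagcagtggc
Otc (chrX:10252055-10252304, plus strand): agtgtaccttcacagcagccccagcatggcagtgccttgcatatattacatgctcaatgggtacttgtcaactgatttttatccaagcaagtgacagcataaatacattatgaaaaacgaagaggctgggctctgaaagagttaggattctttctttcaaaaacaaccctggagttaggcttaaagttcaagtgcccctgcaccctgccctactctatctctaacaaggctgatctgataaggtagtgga

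Alb had a match to the HNF1 half-site at 32 to 27 bases before its start and to the C/EBP letters at 94 to 87, and Foxa3 had a TATA box at 36 to 31. Afp matched the HNF1 half-site (105 to 100), the C/EBP letters (89 to 82) and the TATA box (7 to 2). None of these letters was found in the windows of F2, F5, Serpinc1, Apoa1 or Otc. The promoter table held 47 of the 55 genes, and 37 of the 43 tested ones. The C/EBP letters were in none of 12 such genes that rose, in 1 of 3 that fell and in 10 of 22 that did not pass, beside 10.8% of the 27025 genes in the table. The HNF1 half-site was in 2 of 12 (Hnf4a and Vtn, whose windows are not printed), 1 of 3 and 8 of 22, beside 7.49%. The TATA box was in 2 of 12, none of 3 and 8 of 22, beside 14.3%. The FOXA letters were in 4 of the 22 genes that did not pass (3.54% of all genes) and the HNF4 letters in none of the 37 (0.451% of all genes). A match is a description of the letters and not evidence of a bound site.

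Among transcription factors, 3 of 6 tested genes rose, none fell and 4 were higher at an unadjusted p below 0.05 (median 0.37). All 6 estimates were above 0, except that Cebpa was -0.11 with equal medians, and the same 3 genes rose there. Hnf4a encodes the nuclear receptor that maintains hepatocyte identity. Its signals were 334, 328 and 342 in Rb null embryos 1 to 3 and 222, 256 and 196 in wild type embryos 1 to 3 (0.49 ± 0.11, limma adjusted p = 0.014). All 3 Rb null values lay above the highest wild type value. Foxa3, a forkhead factor that opens liver chromatin, read 460.2, 488.5 and 452 in Rb null against 314, 347 and 293.5 in wild type livers, again without overlap (0.49 ± 0.09, limma adjusted p = 0.0066). Cebpb, a leucine zipper factor of hepatocytes and myeloid cells that responds to inflammatory signals, read 828, 836 and 750.2 against 591, 559.5 and 571 (0.45 ± 0.07, limma adjusted p = 0.0037). Those groups did not overlap either.

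The remaining factors did not pass. Foxa2 read 298, 379.5 and 376 in Rb null against 286, 279 and 270.1 in wild type livers (0.28 ± 0.11, limma adjusted p = 0.096), where Rb null embryo 1 lay close to the wild type range; without that embryo the difference was 0.38 (limma adjusted p = 0.043). Foxa1 differed by 0.14 ± 0.09 with a 95% interval from -0.07 to 0.36. Cebpa, the family member tied to hepatocyte and granulocyte differentiation, read 2731 ± 109 against 2673 ± 144 (SD, n = 3 each), a difference of 0.03 with an interval from -0.11 to 0.17. Prox1, a homeobox factor of hepatoblasts and lymphatic endothelium, was below the signal filter, with 64.5 to 82.1 in Rb null livers, above the 11.7 to 40.1 of the wild type livers; no filter gave 0.60 (limma adjusted p = 0.075).

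Clotting and fibrinolysis genes rose in 5 of 10 tested cases and none fell, with 1 lower at an unadjusted p below 0.05 (median 0.25). With equal medians F2, F5 and Serpinc1 rose while F7 and Plg fell (median 0.12), beside 6.88% higher and 20.8% lower among all genes. F2 encodes prothrombin, the precursor of the protease that cleaves fibrinogen. Its signals were 1610.0, 1578 and 1594 in Rb null embryos against 1180.5, 1076 and 1037 in wild type embryos (0.52 ± 0.06, limma adjusted p = 0.0013). F5, the cofactor with which factor X activates prothrombin, read 653, 617 and 695 against 434, 419.5 and 415 (0.58 ± 0.07, limma adjusted p = 0.0018). Serpinc1 encodes antithrombin, the main inhibitor of thrombin, and read 2063, 2141 and 2143 against 1612, 1621 and 1583 (0.39 ± 0.05, limma adjusted p = 0.0018). In each of these 3 genes the lowest Rb null embryo stood clear of the highest wild type embryo, and the calls held on leaving out any embryo.

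F10, the protease that cleaves prothrombin, read 572, 558 and 526 in Rb null against 456, 430.4 and 429 in wild type livers (0.30 ± 0.07, limma adjusted p = 0.023). Its dimmer probe set pointed the other way, at 177.7 to 197.2 against 187.9 to 232.3 (-0.12 ± 0.11, limma adjusted p = 0.46), and the mean of both gave 0.088 (limma adjusted p = 0.47). The F10 call was also lost after each of 3 rescalings (limma adjusted p from 0.056 to 0.13) and without Rb null embryo 1 or 2 or wild type embryo 2 or 3 (0.057 to 0.078). Fgg encodes the gamma chain of fibrinogen and read 1516, 1479.9 and 1321 against 1173, 1134 and 1239 (0.27 ± 0.07, limma adjusted p = 0.028). That call was lost with equal medians (limma adjusted p = 0.23), without the intensity trend (0.0504), and without Rb null embryo 1 or 2 or wild type embryo 1 or 2 (0.074 to 0.093).

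The other fibrinogen chains did not pass, although the 3 genes lie side by side. Fgb, the beta chain, was 1179.8 ± 162 against 996 ± 115 (0.23 ± 0.11, 95% interval from -0.03 to 0.49), and Fga, the alpha chain, was 889.9 ± 36.6 against 887 ± 87.7 (0.0083 ± 0.08, -0.18 to 0.20). F7, which starts clotting with tissue factor and is the direct neighbour of F10, lay lower on each of its probe sets (-0.20 ± 0.07, limma adjusted p = 0.097, and -0.11 ± 0.11). Kng1, the kininogen gene, differed by -0.10 ± 0.09, and that estimate turned to 0.021 after quantile normalization and to 0.031 after cyclic loess. For Plg, the precursor of the fibrin-dissolving protease plasmin, the brighter probe set gave -0.085 ± 0.05, while the dimmer gave 0.11 ± 0.05 with genotypes that did not overlap (2241.5 ± 45.4 against 2076 ± 45.2). F9, whose product activates factor X, stayed at 11.7 to 22.1 in all 6 livers, below the filter.

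**Figure D3:**
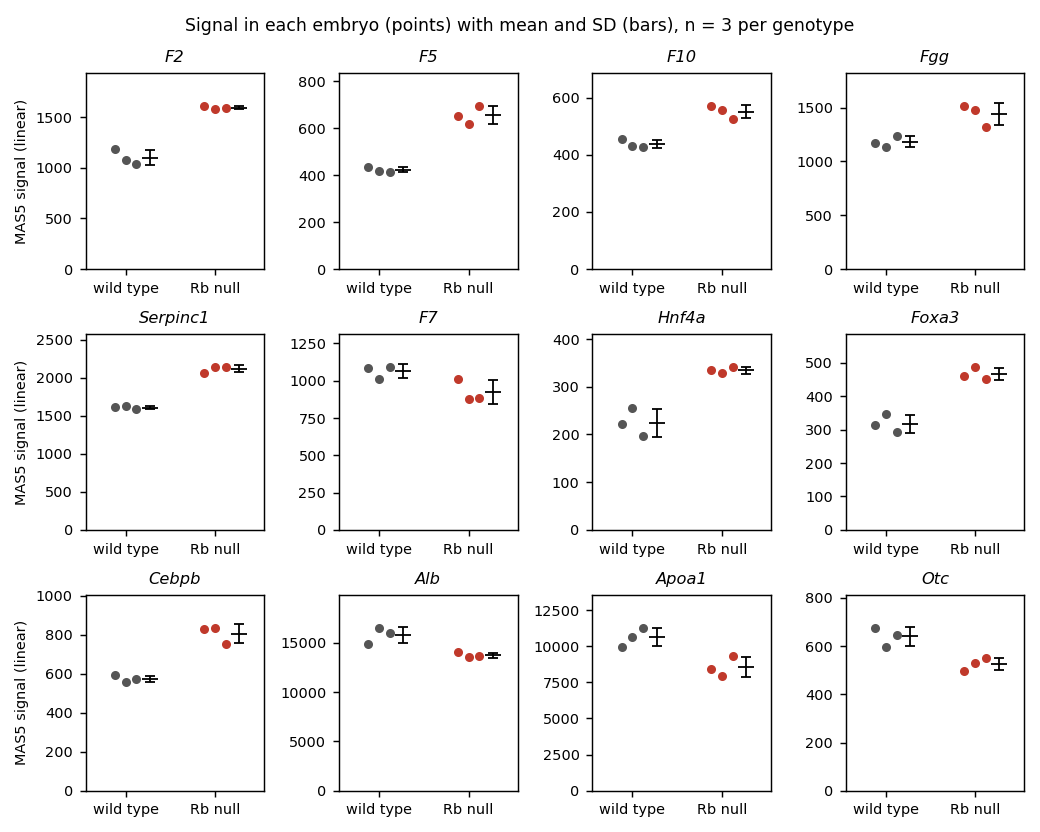
MAS5 signal (linear vertical axis from 0) of 12 liver genes in each of the 3 embryos per genotype (points), with mean and SD (bars). F2, F5, Serpinc1, Hnf4a, Foxa3 and Cebpb are higher in every Rb null embryo, Alb, Apoa1 and Otc are lower in every Rb null embryo, and F7 overlaps between genotypes.

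Of 12 other plasma protein genes tested, 4 rose, 1 fell and 7 did not pass (median 0.086). With equal medians Serpinf1 rose and Alb and Ttr fell (median -0.051), beside 6.88% higher and 20.8% lower among all genes. Serpinf1 encodes a secreted serpin known as pigment epithelium-derived factor, which mesenchymal cells make as well. Its signals were 1916, 1917 and 1834 in Rb null against 1417, 1521 and 1181 in wild type livers (0.45 ± 0.09, limma adjusted p = 0.01). A dimmer Serpinf1 probe set did not pass (0.062 ± 0.08), and the mean of the probe sets gave 0.26 (limma adjusted p = 0.04). Itih3, a heavy chain of the inter-alpha-trypsin inhibitor that binds hyaluronan, read 1346, 1307 and 1512 against 1038, 1131 and 1024 (0.37 ± 0.07, limma adjusted p = 0.011). With equal medians it was 0.23 (limma adjusted p = 0.053).

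Vtn encodes the adhesive protein vitronectin and read 1669, 1724 and 1629 against 1395, 1473 and 1434 (0.22 ± 0.05, limma adjusted p = 0.025). Without Rb null embryo 1 or 2 or wild type embryo 1 or 3 the call was lost (limma adjusted p from 0.069 to 0.084), as it was with equal medians (0.37) and without the trend (0.052). Ambp, the precursor of alpha-1-microglobulin and the light chain bikunin, read 5630.4, 5486 and 5477 against 4932, 4993 and 4753 (0.18 ± 0.05, limma adjusted p = 0.032). The Ambp call was lost on leaving out any of the 6 embryos (limma adjusted p from 0.059 to 0.12) and with equal medians, where the difference was 0.038.

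Alb, the gene of serum albumin, was the plasma protein gene that fell. It read 14032, 13523 and 13708 in Rb null livers against 14934, 16553 and 16014 in wild type livers (-0.20 ± 0.05, limma adjusted p = 0.034). The groups did not overlap, but the direction turned after quantile normalization (0.023) and after cyclic loess (0.045). The call ended without any 1 of Rb null embryos 1 to 3 or wild type embryos 2 and 3 (limma adjusted p from 0.074 to 0.12). Its direct neighbour Afp, which encodes the fetal counterpart of albumin, read 794, 884 and 635 against 685, 621 and 668 (0.20 ± 0.11, limma adjusted p = 0.24), with Rb null embryo 3 inside the wild type range. Without that embryo the Afp difference was 0.33 (limma adjusted p = 0.038).

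The thyroid hormone carrier gene Ttr varied most among the plasma proteins. It read 1368 and 1389 in Rb null embryos 1 and 2 and 1943 in embryo 3, beside 1764 to 2009.5 in wild type embryos (-0.28 ± 0.13, limma adjusted p = 0.15). Without Rb null embryo 3 the difference was -0.44 (limma adjusted p = 0.0083). The retinol carrier gene Rbp4 (-0.048 ± 0.07), the corticosteroid carrier gene Serpina6 (-0.11 ± 0.08), the inhibitor chain gene Itih2 (0.021 ± 0.05) and the fetuin gene Ahsg (0.15 ± 0.06) did not pass. Itih2 passed upward after quantile normalization (0.18, limma adjusted p = 0.015) and cyclic loess (0.21, 0.0091), but was -0.12 with equal medians. Serpina1b, an alpha-1-antitrypsin gene, differed by -0.015 ± 0.05 with a 95% interval from -0.14 to 0.11. It belongs to a family of near-identical copies, and 3 further probe sets that list Serpina1a with other copies lay between -0.15 and 0.15, none past the threshold. Itih1 and Itih4, the neighbours of Itih3, were below the filter. Itih1 read 60.3 to 72.7 in Rb null livers, above the 15.3 to 58.2 of the wild type livers, and no filter gave 0.45 (limma adjusted p = 0.21). Itih4 lay at 100.5 to 141.7 in the 6 livers.

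Apolipoproteins, which carry lipids in plasma, moved in both directions, with 1 of 8 tested genes higher, 1 lower and a median of 0.0059. With equal medians Apoc1 rose and Apoa1, Apoc2 and Apoh fell (median -0.13), while 20.8% of all genes fell (median -0.11). Apoc1, an inhibitor of lipoprotein uptake, rose from 965, 850.3 and 900.0 in wild type embryos to 1229, 1303 and 1155 in Rb null embryos (0.42 ± 0.07, limma adjusted p = 0.0057). Apoa1, the main protein of high-density lipoprotein, fell from 9979.5, 10644 and 11288 to 8394, 7959.7 and 9301 (-0.31 ± 0.07, limma adjusted p = 0.018). Neither gene's groups overlapped. The Apoa1 call was lost without Rb null embryo 1 or 2 or wild type embryo 3 (limma adjusted p from 0.061 to 0.071) and after cyclic loess (-0.11, limma adjusted p = 0.12).

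Apoc1 lies beside Apoe, the ligand for lipoprotein receptors, and near Apoc2, the activator of lipoprotein lipase. Apoe differed by 0.12 ± 0.07 and Apoc2 by -0.13 ± 0.05 (limma adjusted p = 0.24 and 0.1), so that the 3 neighbours gave estimates on both sides of 0. Apoe passed upward after quantile normalization (0.30, limma adjusted p = 0.0084) and cyclic loess (0.29, 0.014), but was -0.017 with equal medians. Apoh, a phospholipid-binding plasma protein named with the apolipoproteins, read 713 ± 25.0 in Rb null against 857 ± 73.9 in wild type livers (SD, n = 3 each; -0.25 ± 0.08, limma adjusted p = 0.0524). It passed in 7 of 18 alternatives, including all 3 rescalings. Apob, the structural protein of low-density lipoprotein, differed by 0.0038 (95% interval from -0.17 to 0.18) and Apom by 0.0079 (-0.11 to 0.12). Apoa2 gave 0.17 ± 0.06 on its brighter probe set, and its groups did not overlap (limma adjusted p = 0.082). A dim second probe set of Apom read 17.7 to 32.4 against 5.5 to 7.8, below the filter, and no filter gave 0.41 (limma adjusted p = 0.031). Apoa4 was also below the filter, at 30.8 to 97.7 in the 6 livers.

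Genes of the urea cycle and of metabolism had 1 of 4 tested members lower and none higher, with none higher at an unadjusted p below 0.05 (limma; median -0.24). With equal medians Otc, Cps1 and Ass1 all fell (median -0.37), while 20.8% of all genes fell (median -0.11). The urea cycle disposes of ammonia, and Cps1, Otc and Ass1 encode its first 3 enzymes in that order. Otc read 498, 528 and 548 in Rb null against 676, 597 and 647 in wild type livers (-0.26 ± 0.08, limma adjusted p = 0.043). The fall of Otc did not pass without any 1 of Rb null embryos 1 to 3 or wild type embryos 1 and 3 (limma adjusted p from 0.058 to 0.13) nor with no filter (0.065). Cps1 read 530.3, 534 and 512 against 638, 614 and 604, without overlap (-0.22 ± 0.07, limma adjusted p = 0.0521), and it passed in 7 of 18 alternatives, including all 3 rescalings. Ass1 read 630.1, 441 and 523 against 682, 600.1 and 666 (-0.28 ± 0.12, limma adjusted p = 0.14), with Rb null embryo 1 inside the wild type range and the other embryos below it.

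Fabp1, the fatty acid binding protein of liver and gut, differed by 0.18 ± 0.09 (limma adjusted p = 0.17). Arg1, the last enzyme of the urea cycle, was below the filter, at 44.5 to 81.6 in the 6 livers. So were Tat and Tdo2, enzymes of tyrosine and tryptophan breakdown that are known to be switched on late in liver development, at 16.9 ± 5.29 against 22.3 ± 9.90 for Tat and at 18.6 to 41.7 for Tdo2.

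Keratins and surface proteins of hepatoblasts did not pass in any of 3 tested cases, with 1 higher at an unadjusted p below 0.05 (limma). Gpc3, a heparan sulphate proteoglycan of the fetal liver, read 4229.5, 4061 and 4170.4 in Rb null against 3406, 3790.0 and 3847 in wild type livers (0.17 ± 0.06, limma adjusted p = 0.072). Its groups did not overlap, and it passed after quantile normalization and cyclic loess at 0.29 each. Krt18 read 502, 537 and 586 against 492.5, 491.7 and 500.5 (0.12 ± 0.08, limma adjusted p = 0.33), and its keratin partner Krt8 differed by -0.041 ± 0.07 with an interval from -0.20 to 0.12. Met, the receptor of hepatocyte growth factor, was below the filter, at 12.5 to 31.3 in Rb null livers, above the 9.2 to 11.1 of the wild type livers. Further probe sets of Afp, Apoa2, Apoe, Apom, Fabp1 and Krt18 were also below it.

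Liver genes outside the list were set beside it. Of 93 such genes, 64 were on the array and 35 were tested. Of these 6 rose, or 17.1%, and none fell, beside 13.1% higher and 9.50% lower among all tested genes. At an unadjusted p below 0.05 (limma) 1 was lower, and the median was 0.13. Genotypes did not overlap for 31.4% of the 35, beside 41.2% of all tested genes. With equal medians Gata6 and C8g rose, Bhmt fell and the median was -0.0019, beside 6.88% higher and 20.8% lower among all genes. Among 10 tested transcription factors 3 rose, led by Gata6, a zinc finger factor of liver and mesoderm, from 438.5 ± 0.265 to 786 ± 4.50 (0.78 ± 0.06, limma adjusted p = 2.7e-04). Hhex, a homeobox factor needed for the liver bud, rose from 272 ± 31.5 to 378 ± 37.3 (0.41 ± 0.11, limma adjusted p = 0.031). Pros1, the anticoagulant protein S, rose by 0.40 ± 0.10 as 1 of 3 tested clotting genes. Serpinf2, the plasmin inhibitor, rose by 0.31 ± 0.07 as 1 of 10 carriers and inhibitors, and the complement gene C8g by 0.40 ± 0.08 as 1 of 4. None of 6 tested liver enzymes and none of 2 tested hepatoblast or bile duct markers passed.

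The markers of hepatoblasts were present in every liver. Of 10 such genes 9 were on the array and tested. All except Dlk1 are also genes of the list studied here, so their values are the same as above. Of the 9, 1 rose (Hnf4a) and 2 fell (Alb and Apoa1), with a median of -0.015. Their summed signal was 39405 to 42547 in Rb null livers against 42606 to 46295 in wild type livers. Without Alb, whose direction turned under 2 rescalings, and Apoa1, the other 7 summed to 17922 to 19702 against 17693 to 18993. The genotypes overlapped there, but the 2 genes left out are the 2 that fell. That overlap therefore cannot show whether hepatoblast content was equal. Markers of other cell types differed with genotype in the same livers. Over all tested genes 13.1% rose and 9.50% fell. The sums given for them cover every marker on the array, those below the filter included. Of 9 tested erythroid markers 7 fell, with summed signals of 52608 to 58409.7 against 66933 to 72766. Of the others, 3 of 8 macrophage markers rose (5453 to 5938 against 4784 to 5051), 3 of 4 megakaryocyte markers (2557 to 2984 against 1539 to 1641) and 4 of 7 granulocyte markers (9719.7 to 9754 against 7342 to 7366). So did 2 of 6 endothelial markers (2554 to 2628 against 2069.6 to 2195), 4 of 8 mesenchymal markers (15988 to 17381 against 12936 to 13089.8) and 2 of 4 tested markers of heart and diaphragm muscle (2006 to 2084 against 1293 to 1376). In these lists Adgre1, Pf4, Ctsg, Pecam1, Pdgfrb, Des, Myh6, Myh7 and Myl2 were below the filter, as were all 4 markers of gut and pancreas (62.8 to 76.8 against 80.0 to 114.7). With equal medians 8 erythroid markers fell, and the counts that rose were 1 macrophage, 3 megakaryocyte, 3 granulocyte, 1 endothelial, 2 mesenchymal and 2 muscle markers. Among all genes 20.8% fell and 6.88% rose with that scaling. The part of these cell types in the liver gene changes was not tested.

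The change went with signal level across all genes. In the brightest 10% of tested genes the median difference was -0.15, with 33.7% lower and 6.25% higher, whereas the 14 liver genes there had a median of -0.031, with 1 higher (Ambp) and 2 lower (Alb and Apoa1). At mean signals of 998 to 2518 the median over all genes was -0.029, and 7 of 11 liver genes rose, with a median of 0.27, beside 11.9% of all genes there. At 406 to 997 3 of 14 rose and 1 fell, beside 16.1% and 5.92% of all genes there (median 0.0061, beside 0.043). At 150.2 to 406 2 of 4 rose, all 4 being transcription factor genes, beside 13% of all genes there. The part of signal level in the falls of Alb and Apoa1 was not tested.

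Calls on 8 of the 16 changed genes were kept under every alternative that tested them: F2, F5, Serpinc1, Hnf4a, Foxa3, Cebpb, Apoc1 and Serpinf1, each of them a rise. For F2 the estimates ran from 0.39 to 0.57, for F5 from 0.45 to 0.62, for Serpinc1 from 0.25 to 0.44 and for Cebpb from 0.32 to 0.50. Those of Hnf4a ran from 0.37 to 0.57 with limma adjusted p values up to 0.0467, and those of Foxa3 from 0.37 to 0.55. No fall had this property. No fall of a liver gene passed without Rb null embryo 2 or without wild type embryo 3 (5 were lower at an unadjusted p below 0.05 in each case, limma), and without Rb null embryo 1 the only one was that of Ass1. Over all genes 5.6%, 4.86% and 5.54% fell in these cases, in that order.

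**Figure D4:**
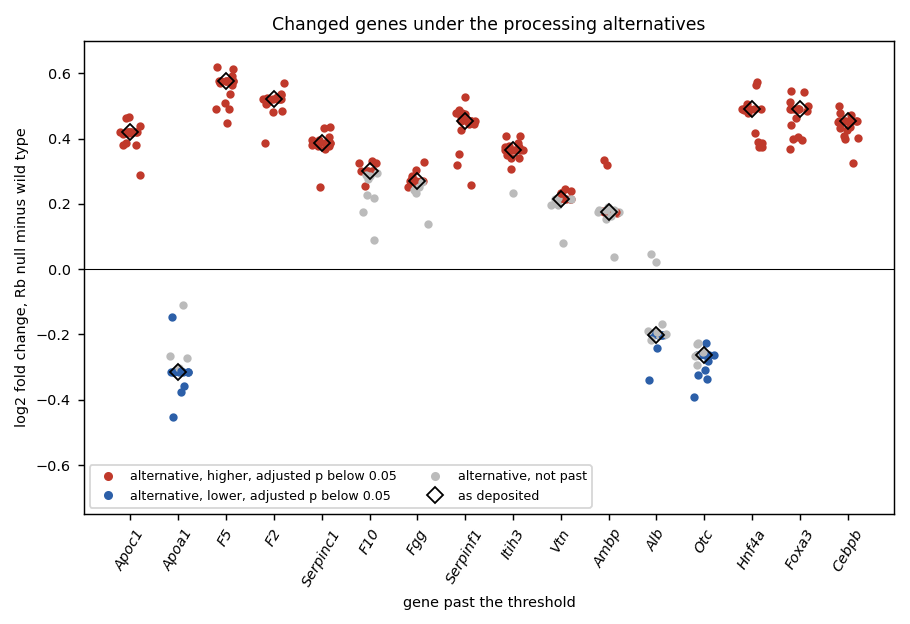
Log2 fold change (vertical axis) of the 16 changed liver genes as deposited (diamonds) and under 18 alternatives (points, 17 for genes that an alternative left out); red and blue points passed the test upward and downward, grey points did not pass. All points of F2, F5, Serpinc1, Hnf4a, Foxa3, Cebpb, Apoc1 and Serpinf1 are red, while 2 points of Alb lie above 0.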

How the data were processed

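Per the labels' protocols, RNA of each dissected and disaggregated liver was taken up in Trizol, and 6 ug of it gave biotin-labelled cRNA for 1 Affymetrix mouse array per embryo. The deposited values are linear signal intensity, which the authors computed with MAS5, per the submitters' processing notes; the version and scaling target are not given in the sources used here. Each embryo counts as 1 replicate (n = 3 per genotype), and precision is limited by how few arrays there are. The labels do not say whether embryos share a litter. Probe sets were named by the platform annotation, checked through RefSeq gene identifiers: 396 had several symbols, 1193 had none and 66 were array controls, which were left out. Members, roles, lists and tests were chosen with earlier results of these data known.

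Signals were raised by 50.02, which is 0.1 of their trimmed mean, and converted to log2. Those with a mean above 150.1, which is 0.3 of that mean, entered limma 3.58.1 (R 4.3.3; moderated test with an intensity trend, two-sided, Benjamini-Hochberg over 6793 probe sets). Signals of all 6 embryos are printed for changed members and, where fewer than 2 of a role changed, for the 2 with the smallest p; a few others were added after their values were seen. Of other liver genes, up to 2 changed ones per list are named. The fit was tested on simulated data. Promoter windows came from the RefSeq table of GRCm38.p6 without the transcribed bases. Alternatives were quantile normalization, equal medians, cyclic loess, offsets of 10.0 and 150.1, no filter and a filter of 500.2, no trend, a robust trend, a block for replicate number, averaged probe sets per gene, no shared-probe suffixes (s, f, r, g or i), and leaving out each embryo.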

Additional observations from a re-analysis of the deposited data

How the results depend on the processing

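The count of liver genes that rose was 13 as deposited, from 9 to 14 on leaving out an embryo, and within 1.5 times in the other alternatives except equal medians (8). The count that fell was 3 as deposited, 1 with the replicate block, 5 with the stricter filter, with averaged probe sets and without shared-probe suffixes, 10 with equal medians, and from 0 to 3 on leaving out an embryo. With no filter it was 0 in limma, where 7 were lower at an unadjusted p below 0.05. Over all genes 9.50% fell as deposited, 9.25% with the replicate block, 17.1% with the stricter filter and 20.8% with equal medians. That share was 8.86% with averaged probe sets, 9.98% without shared-probe suffixes, 4.22% with no filter and 4.86% to 8.14% on leaving out an embryo. The share of all genes that rose was 13.1% as deposited, 6.88% with equal medians and 7.75% to 10.4% on leaving out an embryo. The list median of 0.12 became -0.011 with equal medians, 0.15 after cyclic loess, 0.084 with no filter and 0.026 with the stricter filter, which tested 38 genes, and ran from 0.10 to 0.15 on leaving out an embryo. The labels do not say that replicate numbers pair the embryos. Correlations of same-numbered deviations were -0.062, 0.049 and 0.27, too few values to exclude a pairing. With the number as a block all 13 rises and 1 fall, Apoa1, passed, while Alb and Otc did not (limma adjusted p = 0.0518 and 0.068).

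Estimates changed sign in 35 cases over 14 genes, of which only Alb had passed the test as deposited. With equal medians these were Apob (-0.13), Apoe (-0.017), Apom (-0.13), Cebpa (-0.11), Fga (-0.12), Itih2 (-0.12) and Krt18 (-0.011). After quantile normalization they were Alb (0.023), Apob (-0.059), Fga (-0.023), Kng1 (0.021), Plg (0.087), Rbp4 (0.10), Serpina1b (0.12) and Serpina6 (0.071), and after cyclic loess Alb (0.045), Apob (-0.047), Fga (-0.014), Kng1 (0.031), Plg (0.081), Rbp4 (0.11), Serpina1b (0.12) and Serpina6 (0.10). Plg read 0.011 with averaged probe sets and 0.11 without shared-probe suffixes. On leaving out an embryo, 6 genes crossed 0: Apob ran from -0.056 to 0.048, Apom from -0.011 to 0.021, Fga from -0.07 to 0.061, Krt8 from -0.072 to 0.0075, Rbp4 from -0.11 to 0.014 and Serpina1b from -0.041 to 0.014. Apoe and Itih2, negative with equal medians, passed upward after quantile normalization and after cyclic loess. The cause of the sign changes was not tested. Signal over background limits 9 liver genes that stayed below the filter.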
